A study of Felis catus with 25 samples.

Results

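ANKRD1, CCN1 and EDN1 were followed in fibroblasts cultured from the cornea of the cat (Felis catus). They are 3 of the 13949 genes in the read count tables, found by their symbols, and all 3 passed the filter on low counts. They are grouped here as mechanosensitive genes because each is known, in other cells, to respond to stretch or to tension of the actin cytoskeleton. No mechanical variable is given by the labels, so the name is a description of the genes and not of the experiment.

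ANKRD1 encodes a protein with ankyrin repeats that binds titin in the heart muscle sarcomere and also enters the nucleus, and it is one of the most used target genes of the transcriptional coactivators YAP and TAZ. CCN1, formerly CYR61, encodes a secreted protein of the extracellular matrix that binds integrins and heparan sulfate proteoglycans, and it is a target of both YAP/TAZ and serum response factor (SRF). EDN1 encodes preproendothelin-1, the precursor of a peptide that contracts smooth muscle and myofibroblasts through the receptors EDNRA and EDNRB. YAP and TAZ are held in the cytoplasm by Hippo kinases and act in the nucleus with TEAD proteins, while the coactivator MRTF enters the nucleus when monomeric actin is used up and acts with SRF. In the corneal stroma, transforming growth factor beta 1 (TGFb1) turns fibroblasts into contractile myofibroblasts marked by smooth muscle actin (ACTA2).

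The 25 libraries formed 5 groups of 5. TrogGW held cells given 7.5 uM troglitazone, a drug of the thiazolidinedione class that activates PPAR-gamma, together with 10 uM GW9662, an antagonist of this nuclear receptor. Trog held cells given 7.5 uM troglitazone alone, and UK held cells given 30 uM UK-5099, which blocks entry of pyruvate into mitochondria through its carrier. These 3 groups had received TGFb1 until day 2, when it was taken away and replaced by the drug, and they were harvested at day 5. TGFb held cells harvested at day 2, after 2 days with TGFb1 at 1 ng/ml, and FB held untreated, quiescent fibroblasts harvested at day 0. The FB cells grew on collagen-coated dishes, and the labels of TGFb refer back to the same culture. No library of cells at day 5 without a drug, or at day 2 without TGFb1, was analysed here. In the comparisons of a drug group with TGFb, the drug, the removal of TGFb1 and the later day therefore cannot be told apart. Nor can TGFb1 and the later day be told apart in TGFb against FB. Replicates are labelled as biological, with no word on whether they came from separate cultures or animals, so spreads and p-values describe these libraries.

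Depth ran from 14.8 to 25.2 M counts. Replicate 5 of UK was the shallowest, and its log2 CPM correlated across genes with the other UK libraries at 0.852 to 0.868, against 0.9885 or more for every other pair within a group. The values of the 3 genes that involve UK are therefore also given without it, as are counts of gene lists where leaving it out moved them by more than 1.5 times. Without it, 66.0% of all genes passed the test in TGFb against FB, and 71.6% did in TrogGW against Trog. Against TGFb, 81.0% passed in Trog, 85.9% in TrogGW and 70.9% in UK. List counts without it stand beside these shares, which are of both directions together. Of 10 fibroblast and stromal markers in the files, none was at 0 in any group, and their summed level ran from 7080 to 18227 CPM in TrogGW, 25147 to 30658 in Trog, 103390 to 190400 in UK, 166230 to 203650 in TGFb and 91579 to 107630 in FB. FN1 or COL1A1 was the highest of them in each group, and not every marker followed the sum. PDGFRB had 387 CPM in Trog and 107 in TGFb, and PDGFRA had 198 CPM in TrogGW and 146 in TGFb. DCN had 579 CPM in Trog, 218 in TrogGW and 583 in TGFb. KRT3 and KRT12, the keratins of corneal epithelium, and PTPRC, the common marker of leukocytes, were at 0 in all 5 groups. Of the other epithelium markers, EPCAM had 9.24 ± 0.945 CPM in FB and ALDH3A1 had 11.7 ± 8.51 CPM in UK. PAX6 had 271 reads in TrogGW and 2 in TGFb, while EPCAM was lower in TrogGW, with 2.44 CPM, than in TGFb, with 5.14 CPM. Of 10 corneal epithelium markers 6 were in the files, and their summed level ran from 4.44 to 6.85 CPM in TrogGW, 2.32 to 3.73 in Trog, 7.46 to 30.6 in UK, 4.32 to 6.27 in TGFb and 8.63 to 11.2 in FB. Of 8 immune cell markers 7 were in the files, and theirs ran from 35.4 to 40.5 CPM in TrogGW, 37.9 to 46.8 in Trog, 29.2 to 58.1 in UK, 21.4 to 30.0 in TGFb and 13.8 to 17.1 in FB, with CD68, a lysosomal protein of macrophages that fibroblasts also make, the highest. Of the other immune markers, CSF1R had 581 reads in TrogGW, 713 in Trog, 576 in UK and 12 in TGFb. CD14 had 280 reads in TrogGW, 428 in Trog, 307 in UK and 57 in TGFb. The part of such cells in the results was not tested.

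Levels are given as CPM, the count of a gene for each M counts of its library after TMM scaling. They are not corrected for gene length, so levels are compared between groups and not between genes. Whether groups overlapped was judged on these scaled levels. The members were chosen with their values in these libraries known. ANKRD1 and EDN1 were chosen by their fall in Trog against TGFb, since both were among the 6 genes named for the lowest fold change in an earlier account of the same counts, and how CCN1 was chosen is not recorded. The levels and fold changes of the 3 members are therefore descriptions, without a p-value. Fold changes are the first named group over the second, from an edgeR fit of all libraries, with the standard error (SE).

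ANKRD1 was high in TGFb and close to undetected in TrogGW and Trog. In TrogGW it had 0, 0.333, 0.159, 0.0347 and 0.211 CPM, from 0 to 9 reads a library. In Trog it had 0.773, 0.808, 3.94, 1.94 and 0.369 CPM, from 8 to 97 reads. In UK it had 30.2, 17.5, 31.0, 31.0 and 74.1 CPM, where replicate 5 was the high one. TGFb had 1974, 2031, 1931, 1569 and 1848 CPM, and FB had 229.5, 279, 239.5, 254 and 247 CPM. No group overlapped another, and the order of the means was TGFb, FB, UK, Trog and TrogGW. The closest neighbours were TrogGW, with 0.333 CPM in its highest library, and Trog, with 0.369 CPM in its lowest.

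CCN1 had the same order of group means over a much narrower range. In TrogGW it had 461, 259, 234, 282 and 421 CPM. In Trog it had 569, 829, 707, 718 and 483 CPM. In UK it had 1345, 1157, 1339.6, 1733 and 2425 CPM, again with replicate 5 the highest. TGFb had 3238.5, 2905, 3000, 2857 and 2638 CPM, and FB had 2211, 2060.4, 2031, 2117 and 2269 CPM. UK and FB overlapped through UK replicate 5 alone, since the next highest UK library lay below the lowest FB library. All other pairs of groups were apart. In the RefSeq annotation of the cat (assembly F.catus_Fca126_mat1.0) the span of CCN1 overlaps that of ZNHIT6. ZNHIT6 had at most 8.48% of the count of CCN1 in any library, and how reads of an overlap were assigned is not given in the sources used here.

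EDN1 had the fewest reads of the 3 over all libraries, and it was the only one higher in TrogGW than in Trog. In TrogGW it had 0.383, 0.370, 0.199, 0.139 and 0.973 CPM, from 4 to 23 reads a library. In Trog it had 0.0430, 0.0385, 0.0812, 0.0373 and 0 CPM, from 0 to 2 reads. In UK it had 2.24, 1.13, 2.26, 2.30 and 1.65 CPM, with replicate 5 inside the range of the others. TGFb had 15.6, 13.9, 15.6, 9.55 and 9.14 CPM, and FB had 3.88, 4.28, 4.08, 5.43 and 4.01 CPM. The 5 groups did not overlap, and the order of the means was TGFb, FB, UK, TrogGW and Trog. By library totals alone, TrogGW and UK overlapped, with 23 reads in TrogGW replicate 5, of 17.6 M counts, and 23 in UK replicate 2, of 21.7 M.

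**Figure D1:**
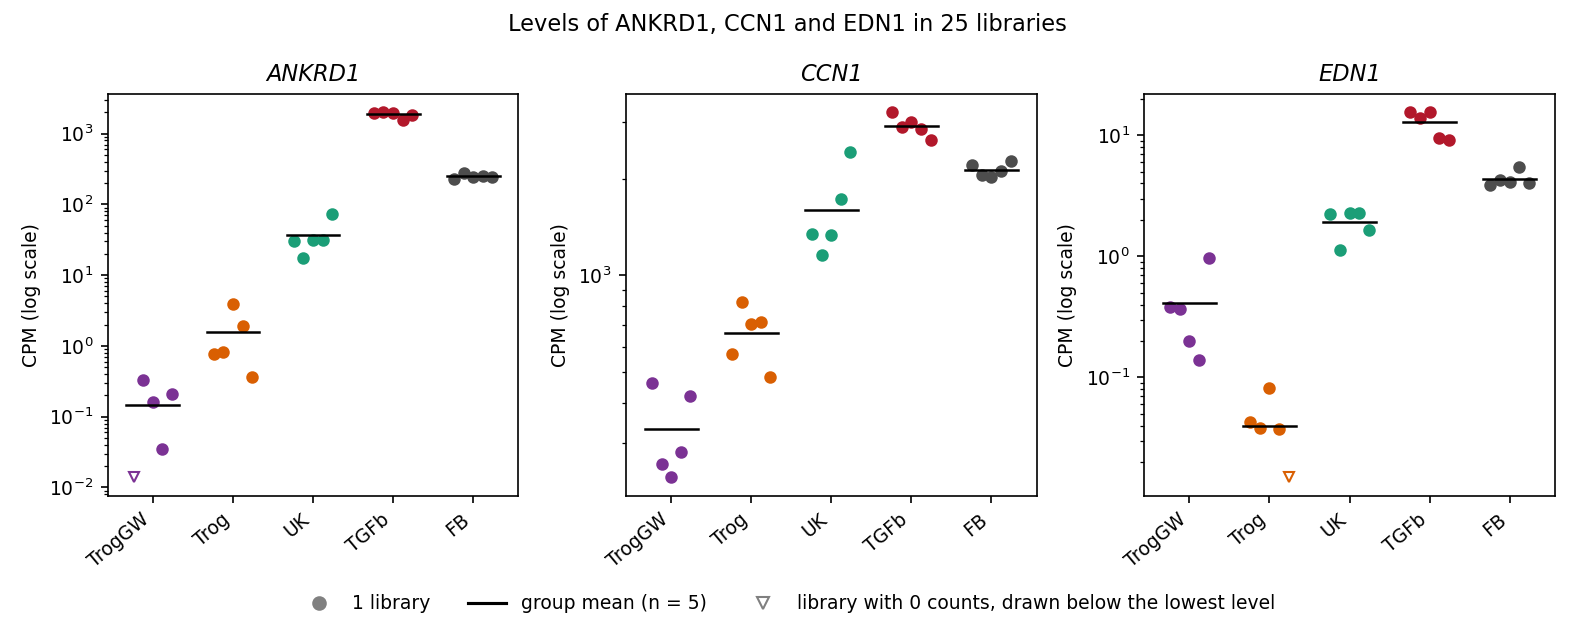
CPM of ANKRD1, CCN1 and EDN1 in each of the 25 libraries (points; log axis), with the group mean as a line and libraries with 0 counts as open triangles below the lowest level, in the order TrogGW, Trog, UK, TGFb and FB. TGFb has the highest mean of each gene, 1871 CPM for ANKRD1, 2928 CPM for CCN1 and 12.8 CPM for EDN1, and TrogGW and Trog have the lowest.

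Addition of TGFb1 to quiescent fibroblasts was the first step of the design. ANKRD1 averaged 1871 ± 182 CPM in TGFb and 249.8 ± 18.8 CPM in FB (SD, n = 5 each), which is 7.49-fold higher and a log2 fold change of 2.90 ± 0.40 (SE). EDN1 averaged 12.8 ± 3.20 CPM in TGFb and 4.34 ± 0.628 CPM in FB, a log2 fold change of 1.56 ± 0.25. CCN1 averaged 2928 ± 219 CPM in TGFb and 2138 ± 100.4 CPM in FB, a log2 fold change of 0.45 ± 0.19. UK replicate 5 enters the SE through the shared estimate of the spread. Without it the values were 2.90 ± 0.17 for ANKRD1, 1.55 ± 0.19 for EDN1 and 0.45 ± 0.14 for CCN1. All 3 were higher in every TGFb library than in every FB library, as were 25.8% of the 10699 genes tested. In whole cultures, a change in the number of cells of a type and a change in RNA per cell cannot be told apart. Scaled by library totals alone, the CCN1 difference was 0.076, and the median of all genes moved by -0.37. CCN1 then overlapped between the groups, with 42408 reads in TGFb replicate 5, of 20.9 M counts, and 41284 in FB replicate 5, of 19.0 M. ACTA2 averaged 9003 ± 427 CPM in TGFb and 1942 ± 146 CPM in FB.

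The YAP/TAZ target list was taken from a published target signature, and ANKRD1 and CCN1, which belong to it, were left out of its counts. Of its other 20 genes, 5 rose and 4 fell in TGFb against FB, beside 18.0% of all genes that rose and 20.2% that fell (edgeR quasi-likelihood test, Benjamini-Hochberg adjusted p under 0.05). The median log2 fold change of the list was 0.16, beside -0.02 over all genes. GADD45B, a growth arrest and stress gene, rose to 172 ± 22.7 CPM in TGFb, against 66.1 ± 9.74 CPM in FB. CRIM1, a membrane protein that binds growth factors of the BMP family, had a log2 fold change of 1.04 ± 0.28 and rose as well. NT5E, the ectonucleotidase CD73, rose by 1.69 ± 0.27 from a low level of 0.554 CPM in FB. TGFB2, a TGF-beta ligand, fell with a log2 fold change of -1.06 ± 0.15, and the kinase gene NUAK2 fell with -0.76 ± 0.16. Without UK replicate 5, which enters the shared estimate of the spread, 7 of the 20 rose and 8 fell.

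The MRTF and SRF target list moved more in one direction. Of its 21 tested genes, 12 rose and 1 fell in TGFb against FB, beside 18.0% of all genes that rose and 20.2% that fell. The median log2 fold change of the list was 0.55. The tropomyosin genes TPM2 and TPM1 rose by 1.89 ± 0.40 and 1.17 ± 0.15, and CNN1, which encodes the smooth muscle protein calponin, rose by 1.76 ± 0.13. FHL2, a LIM domain cofactor, was the 1 that fell, to 101 ± 3.07 CPM in TGFb against 130.3 ± 3.43 CPM in FB. Scaled by library totals alone, 4 of the list rose and 2 fell. Of 22 genes for Hippo pathway proteins, TEADs and MRTFs, 6 rose and 0 fell, beside the same 18.0% and 20.2% of all genes. The largest rise was that of MRTFA, at 179.8 ± 8.78 CPM in TGFb and 81.9 ± 3.34 CPM in FB. YAP1 itself, named here outside the rule for named genes, had 94.8 ± 2.66 CPM in TGFb and 68.3 ± 3.92 CPM in FB. Its log2 fold change of 0.47 ± 0.21 did not pass the test (edgeR adjusted p = 0.0826), whose spread is shared with UK replicate 5. Whether YAP1 passed without that library is not reported here. With UK replicate 5 left out, 12 of the 22 rose and 2 fell.

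**Figure D2:**
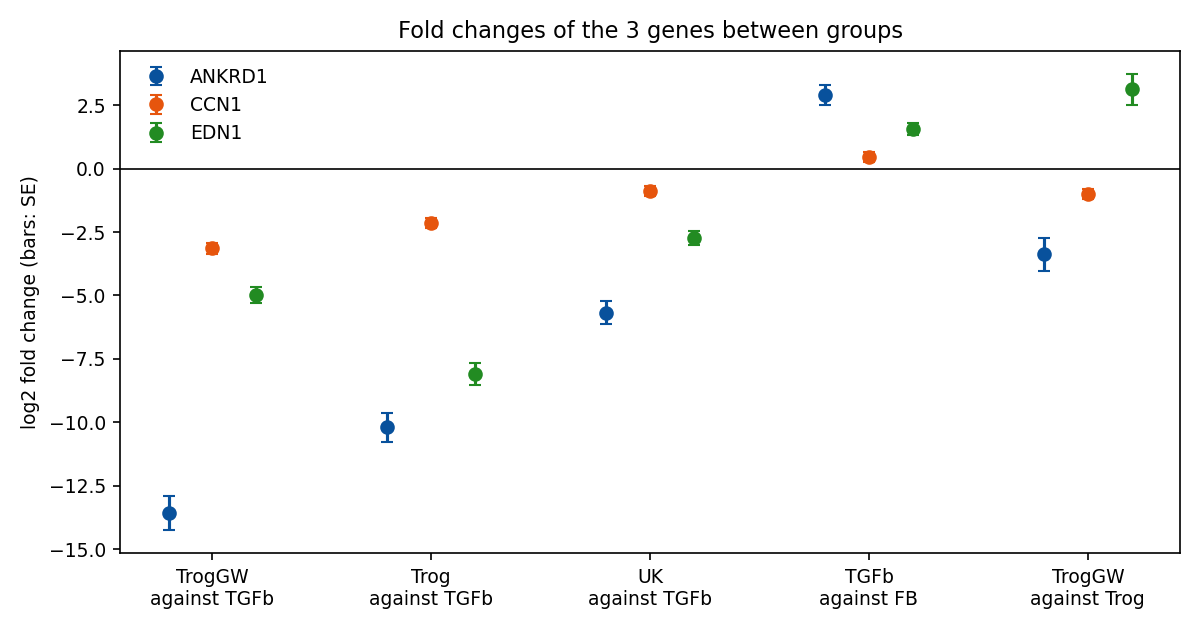
Log2 fold change of ANKRD1, CCN1 and EDN1 in the 5 main comparisons, with bars of 1 SE from the edgeR fit. The values of ANKRD1 against TGFb reach -13.59, those of CCN1 stay between -3.14 and 0.45, and EDN1 alone is above 0 in TrogGW against Trog, at 3.13.

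The comparison of Trog with TGFb asks how far the response stood from that of TGFb1-treated cells 3 days after troglitazone took the place of TGFb1. ANKRD1 averaged 1.57 ± 1.45 CPM in Trog and 1871 ± 182 CPM in TGFb, which is 1195-fold lower. Its log2 fold change of -10.20 ± 0.56 was the 2nd lowest of all genes tested, and it was -10.87 without Trog replicate 3, the highest Trog library. EDN1 averaged 0.0400 ± 0.0288 CPM in Trog, from 5 reads in the 5 libraries together, and 12.8 ± 3.20 CPM in TGFb. Its log2 fold change of -8.10 ± 0.43 was the 7th lowest, and the counting interval of the ratio ran from 0.00102 to 0.00738 (95%, exact, counting error only). CCN1 averaged 661 ± 135 CPM in Trog and 2928 ± 219 CPM in TGFb, which is 4.43-fold lower and a log2 fold change of -2.15 ± 0.20, the 500th lowest. All 3 were lower in every Trog library than in every TGFb library, as were 34.3% of all genes tested. Trog also lay below FB for all 3 with no overlap, as did 35.9% of all genes, with log2 fold changes of -7.30 ± 0.51 for ANKRD1, -6.54 ± 0.46 for EDN1 and -1.69 ± 0.20 for CCN1. Without Trog replicate 3 that of ANKRD1 was -7.97. The 3 comparisons with TGFb share the TGFb libraries, so their values are not independent of each other.

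Of the 20 other YAP/TAZ targets, 13 fell and 2 rose in Trog against TGFb, beside 29.7% of all genes that fell and 32.9% that rose. The median log2 fold change of the list was -0.86, beside 0.04 over all genes. GADD45B fell most, to 10.4 ± 1.34 CPM in Trog against 172 ± 22.7 CPM in TGFb, a log2 fold change of -4.04 ± 0.33. CCN2, the connective tissue growth factor, fell to 1688 ± 223 CPM in Trog against 8544 ± 731 CPM in TGFb, a log2 fold change of -2.34 ± 0.31. ASAP1, a regulator of ARF GTPases at focal adhesions, rose by 1.55 ± 0.35, and AJUBA, a LIM protein that binds LATS kinases, rose by 0.51 ± 0.19. Scaled by library totals alone, 7 fell and 4 rose, and without UK replicate 5 14 fell and 4 rose.

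All 21 tested MRTF and SRF targets fell in Trog against TGFb, beside 29.7% of all genes, with a median log2 fold change of -2.08. Between 18 and 21 fell across the alternatives that were run. CNN1 fell to 12.6 ± 1.87 CPM in Trog against 452 ± 17.4 CPM in TGFb, and TPM1 fell to 436 ± 76.1 CPM in Trog against 8610.4 ± 330.3 CPM in TGFb. The coactivator gene MRTFA fell with a log2 fold change of -1.92 ± 0.09, as did VGLL3, a TEAD cofactor, with -2.84 ± 0.27. Of the 22 Hippo and MRTF pathway genes, 5 fell and 6 rose, which is 22.7% and 27.3%, beside 29.7% and 32.9% of all genes. The largest rise was that of the kinase gene MAP4K4 at 1.36 ± 0.13. YAP1 had 90.3 ± 3.63 CPM in Trog and 94.8 ± 2.66 CPM in TGFb, which did not pass the test. Of the 22, 7 fell and 9 rose without UK replicate 5.

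With GW9662 added, ANKRD1 was lower still against TGFb. It averaged 0.148 ± 0.135 CPM in TrogGW, from 19 reads in the 5 libraries together, and 1871 ± 182 CPM in TGFb, a log2 fold change of -13.59 ± 0.67 that was again the 2nd lowest of all genes. CCN1 averaged 332 ± 102 CPM in TrogGW and 2928 ± 219 CPM in TGFb, which is 8.83-fold lower and a log2 fold change of -3.14 ± 0.21. EDN1 averaged 0.413 ± 0.331 CPM in TrogGW and 12.8 ± 3.20 CPM in TGFb, a log2 fold change of -4.97 ± 0.31, the 82nd lowest. All 3 were lower in every TrogGW library than in every TGFb library, as were 35.2% of all genes tested. TrogGW lay below FB for all 3 without overlap, as did 37.5% of all genes, with log2 fold changes of -10.68 ± 0.63 for ANKRD1, -3.41 ± 0.32 for EDN1 and -2.69 ± 0.20 for CCN1. ACTA2 averaged 9.38 ± 11.5 CPM in TrogGW, against 270 ± 73.6 CPM in Trog, 3408 ± 1464 CPM in UK and 9003 ± 427 CPM in TGFb.

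Of the 20 other YAP/TAZ targets, 13 fell and 2 rose in TrogGW against TGFb, beside 31.3% of all genes that fell and 38.1% that rose, with a median log2 fold change of -0.99. CCN2 fell to 866 ± 254 CPM in TrogGW, CRIM1 to 126 ± 12.5 CPM against 1199 ± 105 CPM in TGFb, and AMOTL2, an angiomotin family gene, to 42.5 ± 10.0 CPM against 383 ± 28.9 CPM in TGFb. IGFBP3, a binding protein of insulin-like growth factors, rose, with 242 reads in the 5 TrogGW libraries and 0 in the 5 TGFb libraries. No other group had more than 2 reads of it, so it passed the filter on low counts through TrogGW alone. Its rise, counted among the 2, is therefore not an independent result. All 21 MRTF and SRF targets fell, with a median of -2.50, and MYL9, the regulatory light chain of smooth muscle myosin, had a log2 fold change of -5.75 ± 0.26. Of the 22 Hippo and MRTF genes, 8 fell and 5 rose, MRTFA falling with -1.76 ± 0.09 and NF2, which encodes the Hippo activator merlin, rising by 1.03 ± 0.24. Of these genes, 9 fell and 12 rose without UK replicate 5. Scaled by library totals alone, 7 of the YAP/TAZ targets fell and 5 rose, while the median of all genes moved by 0.85.

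In UK the 3 genes were also lower than in TGFb. ANKRD1 averaged 36.7 ± 21.7 CPM in UK and 1871 ± 182 CPM in TGFb, which is 50.9-fold lower and a log2 fold change of -5.68 ± 0.46, the 9th lowest of all genes. EDN1 averaged 1.92 ± 0.517 CPM in UK and 12.8 ± 3.20 CPM in TGFb, a log2 fold change of -2.73 ± 0.27. CCN1 averaged 1599.8 ± 507 CPM in UK and 2928 ± 219 CPM in TGFb, a log2 fold change of -0.87 ± 0.19. All 3 were lower in every UK library than in every TGFb library, as were 18.7% of all genes tested. Without UK replicate 5 the log2 fold changes were -6.09 ± 0.23 for ANKRD1, -2.69 ± 0.23 for EDN1 and -1.07 ± 0.16 for CCN1. Against FB they were -2.77 ± 0.40, -1.17 ± 0.27 and -0.42 ± 0.19 for ANKRD1, EDN1 and CCN1 with all libraries, and the groups overlapped for CCN1 but not for the other 2, beside 20.5% of all genes that lay lower without overlap. Without UK replicate 5 they were -3.19 ± 0.20, -1.14 ± 0.24 and -0.62 ± 0.16 for ANKRD1, EDN1 and CCN1. The doses and the molecules of UK and Trog differ. Side by side, ANKRD1 averaged 36.7 CPM in UK and 1.57 CPM in Trog, CCN1 1599.8 CPM in UK and 661 CPM in Trog, and EDN1 1.92 CPM in UK and 0.0400 CPM in Trog.

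Of the 20 other YAP/TAZ targets, 10 fell and 1 rose in UK against TGFb, beside 22.5% of all genes that fell and 28.0% that rose, with a median log2 fold change of -0.56. GADD45B fell to 41.0 ± 30.7 CPM in UK against 172 ± 22.7 CPM in TGFb, and AXL, a receptor tyrosine kinase, fell to 720.3 ± 308 CPM in UK against 1820.1 ± 93.4 CPM in TGFb. F3, which encodes tissue factor, was the 1 that rose, with a log2 fold change of 0.73 ± 0.30, and it did not pass without UK replicate 5. Of the 21 MRTF and SRF targets, 16 fell and 0 rose, with a median of -1.30. CNN1 fell by 2.52 ± 0.13, the actin crosslinker ACTN1 by 2.03 ± 0.18 and the myosin heavy chain MYH9 by 2.00 ± 0.31 on the log2 scale. Without UK replicate 5, 11 YAP/TAZ targets fell and 0 rose, and 19 MRTF and SRF targets fell and 1 rose. Among the Hippo and MRTF genes, 6 fell and 4 rose, with TEAD3 the lowest at -1.21 ± 0.27, and without UK replicate 5 7 fell and 8 rose.

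The comparison of TrogGW with Trog, both harvested at day 5 with the same dose of troglitazone, sets cells with the PPAR-gamma antagonist against cells without it. The 3 genes did not move together. ANKRD1 averaged 0.148 ± 0.135 CPM in TrogGW and 1.57 ± 1.45 CPM in Trog, which is 10.6-fold lower and a log2 fold change of -3.38 ± 0.65. The ratio of the summed reads, 19 in TrogGW and 196 in Trog, was 0.0908 with a 95% counting interval of 0.0535 to 0.146. CCN1 averaged 332 ± 102 CPM in TrogGW and 661 ± 135 CPM in Trog, a log2 fold change of -0.996 ± 0.193. EDN1 averaged 0.413 ± 0.331 CPM in TrogGW and 0.0400 ± 0.0288 CPM in Trog, a log2 fold change of 3.13 ± 0.62. The ratio of its summed reads, 52 in TrogGW and 5 in Trog, was 9.74 with a counting interval of 3.92 to 31.3. In every TrogGW library ANKRD1 and CCN1 were lower than in every Trog library, as were 26.9% of all genes tested, and EDN1 was higher, as were 27.3%. Left out one at a time, the libraries moved the ANKRD1 value between -3.94 and -2.72, the last without Trog replicate 3, and the EDN1 value between 2.57 and 3.47.

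Of the 20 other YAP/TAZ targets, 7 fell and 4 rose in TrogGW against Trog, beside 20.4% of all genes that fell and 22.8% that rose, with a median of -0.17. AMOTL2 fell to 42.5 ± 10.0 CPM in TrogGW against 200.7 ± 41.4 CPM in Trog, and CRIM1 and AJUBA fell with log2 fold changes of -1.48 ± 0.28 and -1.25 ± 0.19. GADD45B rose to 103 ± 27.5 CPM in TrogGW against 10.4 ± 1.34 CPM in Trog, a log2 fold change of 3.31 ± 0.32. IGFBP3, which passed the filter through TrogGW alone, rose too and is counted among the 4, with 242 reads in TrogGW and 2 in Trog. Of the 21 MRTF and SRF targets, 11 fell and 1 rose, and MYL9 fell to 37.7 ± 20.3 CPM in TrogGW against 167 ± 23.2 CPM in Trog. FHL2, the 1 that rose, had a log2 fold change of 0.34 ± 0.07, and between 1 and 5 genes rose across the alternatives, with 5 that rose and 14 that fell without UK replicate 5. Of the 22 Hippo and MRTF genes, 3 fell and 1 rose, and TEAD4 fell with -0.53 ± 0.09. When UK replicate 5 was left out, 8 fell and 8 rose.

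**Figure D3:**
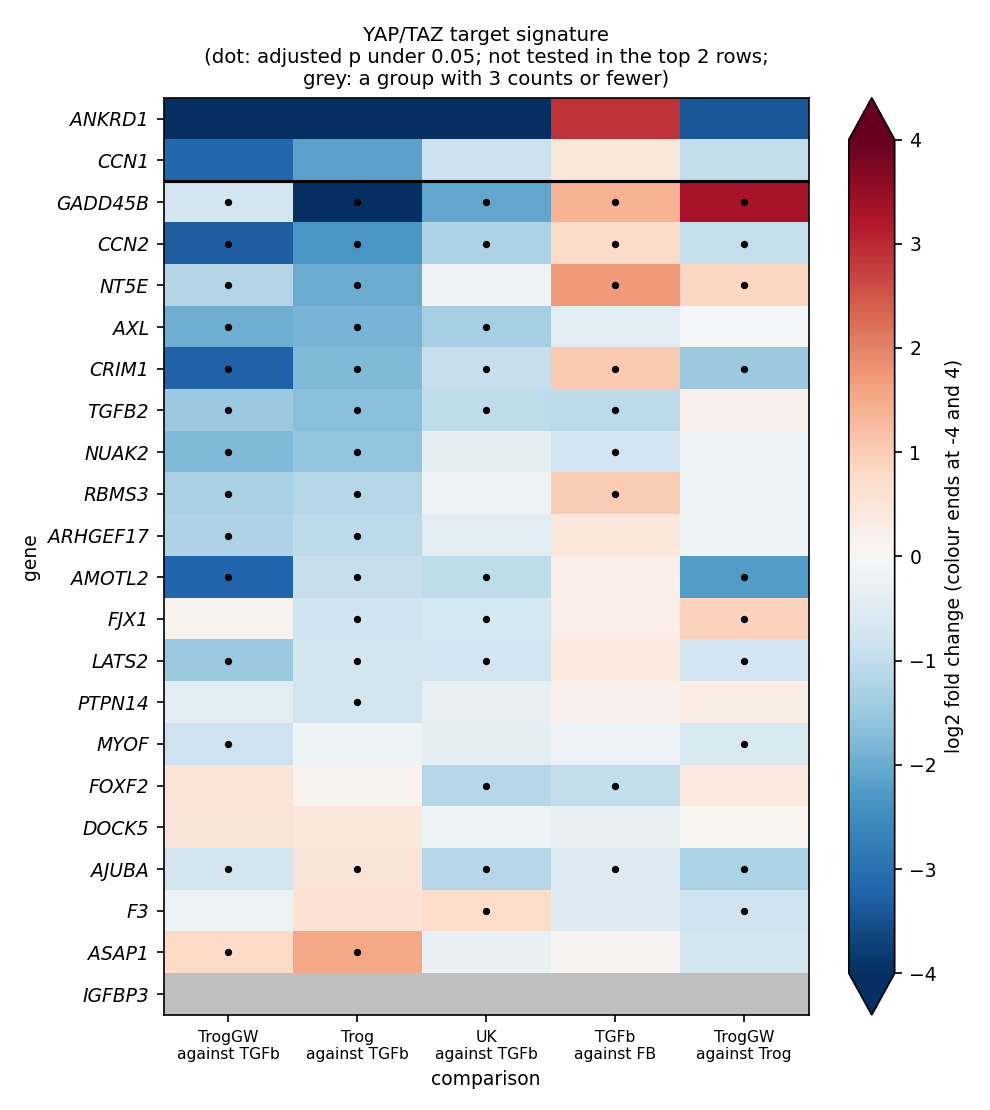
Log2 fold changes of the YAP/TAZ target signature in the 5 main comparisons (colour, ending at -4 and 4), with a dot at an adjusted p under 0.05 (edgeR) and grey where a group had 3 counts or fewer, as for IGFBP3. The top rows are ANKRD1 and CCN1, which were not tested; below them, 13 of 20 genes fell in Trog and in TrogGW against TGFb, 10 fell in UK, and GADD45B rose in TrogGW against Trog.

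The rest of the CCN family was measured beside CCN1. CCN2, CCN3, CCN4 and CCN5 were tested, and CCN6 was too low, with 3 to 16 reads a group. In TGFb against FB all 4 rose, beside 18.0% of all genes. CCN3, a family member known to restrain proliferation in several cell types, rose most, to 108 ± 15.04 CPM in TGFb against 8.71 ± 0.902 CPM in FB, a log2 fold change of 3.64 ± 0.24. CCN5, which lacks the C-terminal domain of the other members, had 16.7 ± 2.21 CPM in TGFb and 6.57 ± 1.34 CPM in FB, and CCN4 had 12.9 ± 0.609 CPM in TGFb and 6.40 ± 0.912 CPM in FB. CCN2 had 8544 ± 731 CPM in TGFb and 5080 ± 264 CPM in FB, and its log2 fold change of 0.75 ± 0.30 lay just under the threshold and did not pass with upper quartile scaling, with library totals alone, with another filter or in most fits that left out a library.

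All 4 fell against TGFb in Trog, in TrogGW and in UK, as did 29.7%, 31.3% and 22.5% of all genes in the same order. The lowest values were -5.55 ± 0.27 for CCN3 in Trog and -5.64 ± 0.32 for CCN5 in TrogGW. CCN2 in UK ran from 1792 to 8735 CPM, and the highest library was again replicate 5. In TrogGW against Trog, CCN2 and CCN5 fell with log2 fold changes of -0.96 ± 0.30 and -2.06 ± 0.35, and CCN4 passed the test without UK replicate 5 but not with all libraries. Of all genes 20.4% fell and 22.8% rose there. CCN3 rose, to 25.6 ± 8.19 CPM in TrogGW against 2.31 ± 0.456 CPM in Trog, a log2 fold change of 3.47 ± 0.25. The sign of CCN3 in this comparison was that of EDN1 and opposite to that of CCN1.

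**Figure D4:**
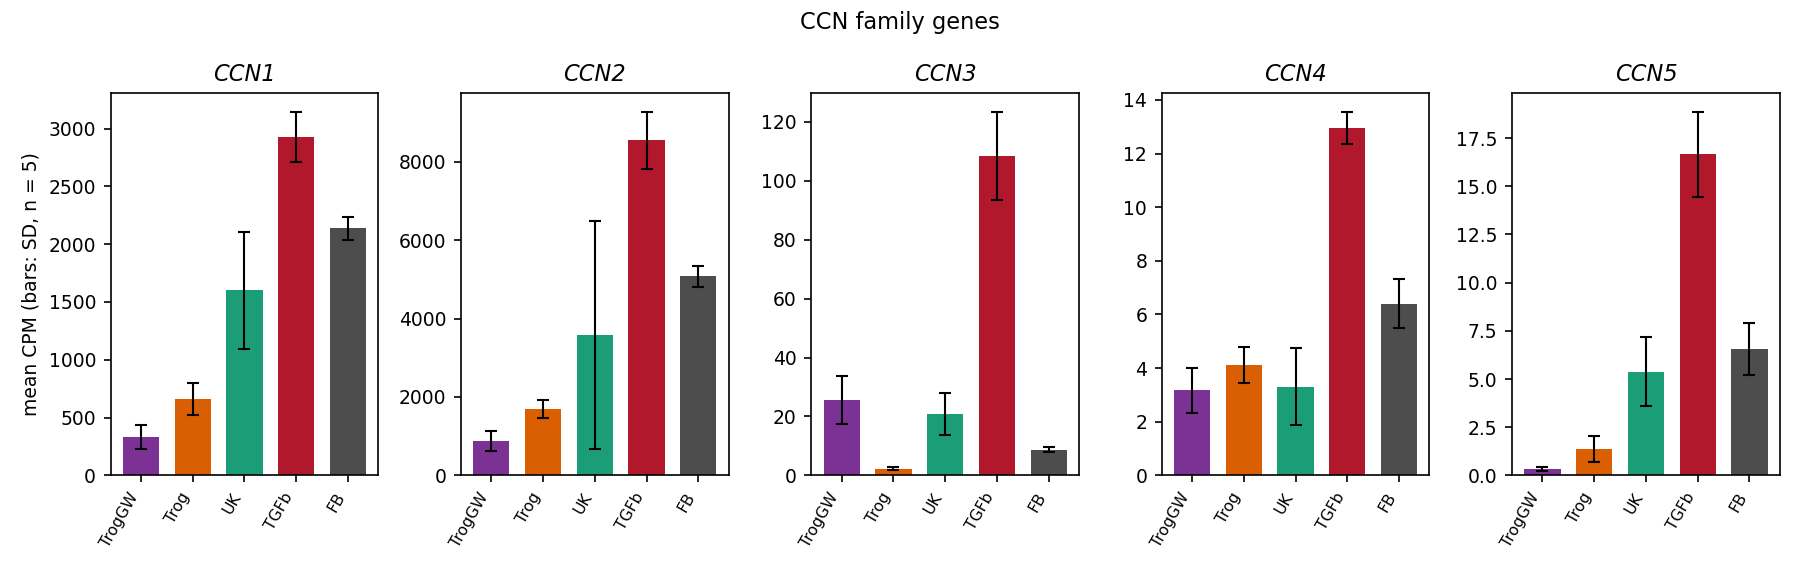
Mean CPM of CCN1 to CCN5 in each group (bars from 0) with the SD over 5 libraries (error bars), each gene on its own axis, in the order TrogGW, Trog, UK, TGFb and FB. CCN3 is the gene of this family with a higher mean in TrogGW, 25.6 CPM, than in Trog, 2.31 CPM.

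CCN1 acts on cells through integrins and syndecan-4, and 7 of the 9 listed receptor genes were tested. In TGFb against FB 4 rose and 0 fell, beside 18.0% of all genes that rose and 20.2% that fell, among them ITGAV, ITGB1 and SDC4, with log2 fold changes of 0.83 ± 0.32, 0.71 ± 0.12 and 0.57 ± 0.16. ITGAV did not pass in most fits that left out a library. In Trog against TGFb 4 fell and 2 rose, beside 29.7% and 32.9% of all genes. ITGA6, a laminin-binding integrin chain that also serves CCN1, fell to 2.51 ± 0.391 CPM in Trog against 41.0 ± 3.25 CPM in TGFb, while ITGAV rose to 614 ± 59.3 CPM in Trog against 318 ± 16.7 CPM in TGFb. In TrogGW against TGFb 4 fell and 1 rose, beside 31.3% and 38.1% of all genes, and in UK against TGFb 4 fell and 0 rose, beside 22.5% and 28.0%, with ITGA6 the lowest in both at -2.80 ± 0.27 and -2.00 ± 0.26. In TrogGW against Trog ITGA6 rose by 1.23 ± 0.27 and ITGB5 fell to 242 ± 12.6 CPM in TrogGW against 626 ± 35.7 CPM in Trog. Without UK replicate 5, 6 rose and 1 fell in TGFb against FB, 3 rose and 4 fell in Trog, 2 rose and 5 fell in TrogGW and 2 rose and 4 fell in UK against TGFb, and 3 rose and 2 fell in TrogGW against Trog.

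The endothelin genes around EDN1 did not move as a group. EDNRB, the receptor that also clears the peptide, fell to 4.74 ± 0.665 CPM in TGFb against 14.2 ± 1.12 CPM in FB, a log2 fold change of -1.58 ± 0.20. EDNRA, the receptor that mediates contraction in smooth muscle, rose to 3.43 ± 0.733 CPM in TGFb against 1.96 ± 0.216 CPM in FB. MME, which encodes neprilysin, a protease that degrades endothelin-1, rose by 0.77 ± 0.22. ECE1, the enzyme that cuts big endothelin-1 to its active form, had a log2 fold change of -0.34 ± 0.26 and passed without UK replicate 5 but not with all libraries.

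Against TGFb, the drug groups differed from each other in the receptors and enzymes. EDNRB rose to 78.6 ± 10.6 CPM in Trog against 4.74 ± 0.665 CPM in TGFb, a log2 fold change of 4.05 ± 0.21 and its highest level of the 5 groups. ECE1 rose to 239.8 ± 21.5 CPM in Trog against 63.8 ± 3.31 CPM in TGFb. EDNRA fell with a log2 fold change of -1.60 ± 0.21, and MME fell to 92.4 ± 9.72 CPM in Trog against 526 ± 36.2 CPM in TGFb. In TrogGW against TGFb EDNRB and ECE1 rose by 3.38 ± 0.21 and 1.70 ± 0.27 and MME fell with -3.18 ± 0.24. EDNRA had 3.23 ± 0.271 CPM in TrogGW and 3.43 ± 0.733 CPM in TGFb and did not pass the test, and its sign turned with library totals alone and with upper quartile scaling. In UK against TGFb EDNRB rose to 15.8 ± 5.42 CPM in UK against 4.74 ± 0.665 CPM in TGFb, and MME fell with -1.24 ± 0.22. EDNRA and ECE1 did not pass there, with log2 fold changes of 0.33 ± 0.19 and 0.50 ± 0.26, and ECE1 in UK ran from 17.9 to 118 CPM. Without UK replicate 5, 5 endothelin genes were tested there, of which 3 rose and 2 fell, beside 70.9% of all genes that passed.

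In TrogGW against Trog EDNRA rose by 1.51 ± 0.21, EDNRB fell with -0.67 ± 0.18 and MME with -0.67 ± 0.22. Neither EDNRB nor MME passed there with library totals alone. The other endothelin genes were too low to test with all libraries. EDN2 had 73 reads in TrogGW, 3 in Trog, 0 in UK, 7 in TGFb and 10 in FB, and EDN3 had at most 8 reads in any group. Vascular endothelium is a known source of EDN1, and of its 13 listed markers 6 passed the filter. The summed level of all 13 ran from 93.7 to 116 CPM in TrogGW, 75.4 to 91.3 in Trog, 120.0 to 210.1 in UK, 91.6 to 95.3 in TGFb and 76.8 to 86.8 in FB, with the transcription factor ERG the highest of them. CDH5, the cadherin of endothelial junctions, had 1 to 6 reads a group, and CLDN5 was at 0 in UK, TGFb and FB. Other endothelial markers were not flat, and they differed from TGFb in both directions. KDR had 47.0 CPM in TrogGW and 20.6 in Trog, against 7.23 in TGFb. EGFL7 had 34.1 ± 26.4 CPM in UK and 6.24 in TGFb. PECAM1 had 256 reads in TrogGW and 31 in TGFb, and VWF had 98 in TrogGW, 68 in UK and 3 in TGFb. TEK was lower, with 13 reads in TrogGW and 85 in TGFb, as was ERG, with 51.1 and 78.4 CPM. The part of such cells in the EDN1 values was not tested.

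**Figure D5:**
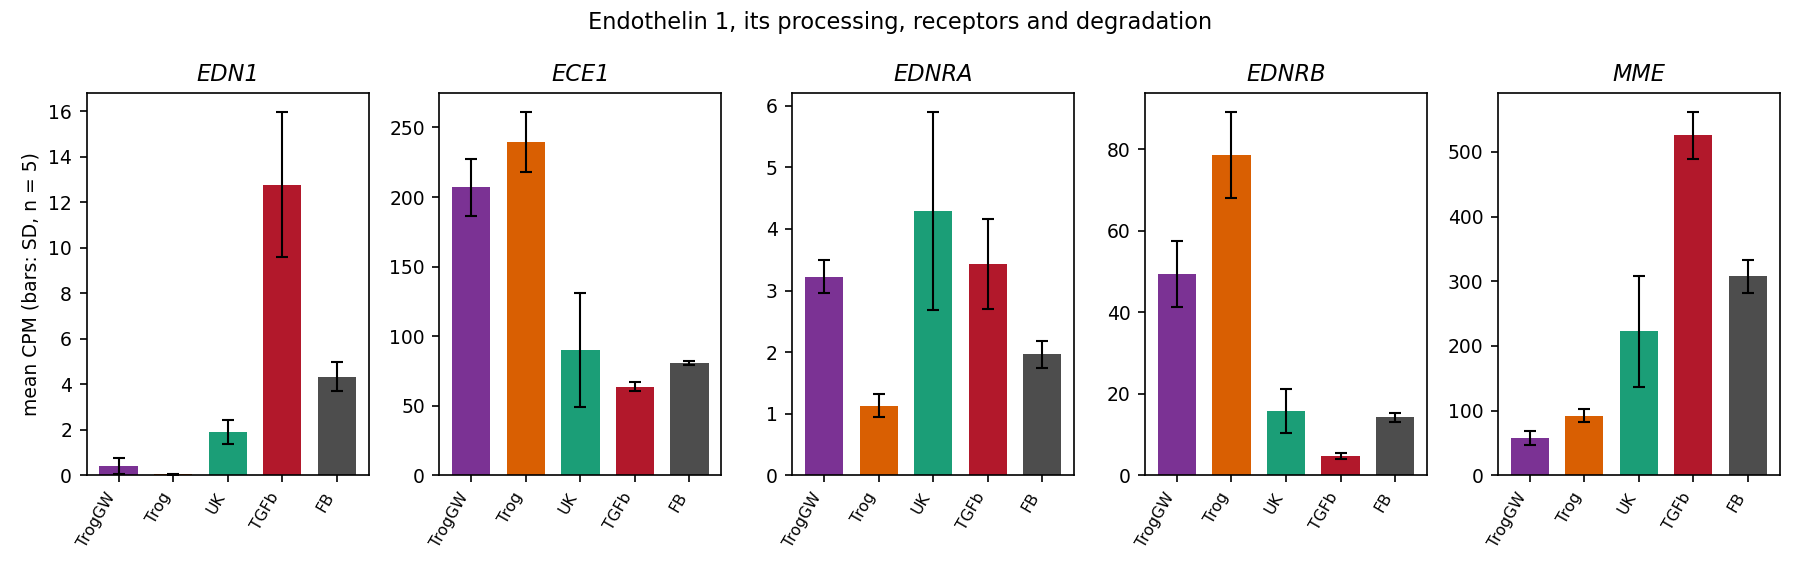
Mean CPM of EDN1, ECE1, EDNRA, EDNRB and MME in each group (bars from 0) with the SD over 5 libraries (error bars), each gene on its own axis, in the order TrogGW, Trog, UK, TGFb and FB. EDNRB has its highest mean in Trog, 78.6 CPM, and its lowest in TGFb, 4.74 CPM, while EDN1 is lowest in Trog, 0.0400 CPM, and highest in TGFb, 12.8 CPM.

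ANKRD1 belongs with ANKRD2 and ANKRD23 to the muscle ankyrin repeat proteins. ANKRD23 was tested and had 5.15 ± 0.640 CPM in TrogGW, 3.49 ± 0.455 in Trog, 3.52 ± 0.411 in UK, 2.30 ± 0.607 in TGFb and 1.77 ± 0.395 in FB. It rose against TGFb in Trog, TrogGW and UK, where ANKRD1 was lowest, beside 32.9%, 38.1% and 28.0% of all genes that rose there. ANKRD2 had at most 9 reads in any group. DES, the intermediate filament desmin of muscle, rose to 1.98 ± 0.452 CPM in TrogGW against 0.300 ± 0.158 CPM in Trog and 0.571 ± 0.0567 CPM in TGFb. Of all genes, 22.8% and 38.1% rose in these comparisons. Against TGFb, DES fell in Trog and in UK, where it had 6 reads and a log2 fold change of -3.02 ± 0.55. There 29.7% and 22.5% of all genes fell.

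Of 8 markers of cardiac and skeletal muscle in the files, 3 passed the filter, and the summed level of all 8 ran from 17.4 to 20.9 CPM in TrogGW, 26.3 to 34.8 in Trog, 0.833 to 3.84 in UK, 1.99 to 3.88 in TGFb and 1.87 to 3.02 in FB. TNNT2, the troponin T of heart muscle, gave most of this, with 14.8 ± 1.78 CPM in TrogGW and 30.6 ± 4.07 CPM in Trog, against 0.819 ± 0.261 CPM in TGFb. MYL2 and MYL7, the heart myosin light chains, were at 0 in all groups. The summed level was higher in TrogGW and Trog, the groups where ANKRD1 was lowest, than in the other groups, but the list did not rise as a whole. In Trog no marker of the list other than TNNT2 had more than 4 reads. TNNC1 had 1.26 ± 0.237 CPM in TrogGW and 0.0330 ± 0.0188 CPM in Trog, against 2.08 ± 0.670 CPM in TGFb and 1.70 ± 0.267 CPM in FB.

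CCN1 also belongs to the genes that answer to growth factors within an hour, and 20 such immediate early genes were tested. In TGFb against FB 7 rose and 4 fell, beside 18.0% of all genes that rose and 20.2% that fell, with NR4A1, a nuclear receptor, at 53.5 ± 27.3 CPM in TGFb and 3.51 ± 2.30 CPM in FB, and FOS at 468 ± 45.4 CPM in TGFb and 79.8 ± 19.7 CPM in FB. In Trog against TGFb 11 fell and 5 rose, beside 29.7% and 32.9% of all genes, FOS falling to 33.8 ± 24.6 CPM in Trog and ATF3, a stress-induced factor, rising to 98.8 ± 18.8 CPM in Trog against 24.1 ± 3.99 CPM in TGFb. In TrogGW against TGFb 8 fell and 7 rose, beside 31.3% and 38.1% of all genes, and in UK against TGFb 11 fell and 1 rose, beside 22.5% and 28.0%. The UK counts were 13 that fell and 1 that rose without UK replicate 5. In TrogGW against Trog 8 rose and 3 fell, beside 22.8% and 20.4% of all genes, led by EGR3 and FOSB. FOSB had 21.1 ± 7.35 CPM in TrogGW and 1.22 ± 0.573 CPM in Trog. EGR3 had 12.3 ± 2.97 CPM in TrogGW, 0.433 ± 0.274 CPM in Trog and 0.160 CPM or less in UK, TGFb and FB. It passed the filter on low counts mainly through TrogGW, so its rise there is not an independent result. CCN1 had the opposite sign to FOSB and EGR3 in that comparison.

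Among themselves, the 3 genes differed most in how far their group means were spread. From the highest to the lowest group mean of log2 CPM, ANKRD1 spanned 13.11, EDN1 6.55 and CCN1 3.19. The low ends of ANKRD1, with 0 to 9 reads a library, and EDN1, with 0 to 2, lie near the floor. A library with 0 reads has a log2 CPM of -3.38, set by the prior count of 2. These spans and the distances therefore depend in part on that floor. For EDN1 in Trog against TGFb, the fit gave -8.10. With the 5 group means of each gene centred on 0, the distance was 3.24 between CCN1 and EDN1, 6.31 between ANKRD1 and EDN1 and 8.18 between ANKRD1 and CCN1.

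By the same distance, the nearest of 8224 genes that reached a mean of 10 CPM in some group were named for each member, as a description over the same 25 libraries. Nearest to ANKRD1 were ELN (elastin), COL3A1 (a fibrillar collagen chain), ACTC1 (cardiac actin), ACTA2 and GABRP (a GABA receptor subunit), at distances of 3.96 to 4.65. Nearest to CCN1 were RHOJ, CDH2 (N-cadherin), PCSK6 (a proprotein convertase), PCYOX1L and SGCB (beta-sarcoglycan), at 0.34 to 0.40. Nearest to EDN1 were FABP3 (a fatty acid binding protein), TGFBI, AK5 (an adenylate kinase), CNN1 and SOX9, at 1.19 to 1.63. No gene came within 3.96 of ANKRD1 on this scale. ELN averaged 3.00 CPM in TrogGW, 5.24 in Trog, 112 in UK, 812 in TGFb and 159.8 in FB. COL3A1 averaged 0.195 CPM in TrogGW, 1.51 in Trog, 222 in UK, 240 in TGFb and 278 in FB. Unlike ANKRD1, it was not higher in TGFb than in FB. RHOJ averaged 15.03 CPM in TrogGW, 24.9 in Trog, 68.9 in UK, 105 in TGFb and 98.5 in FB. FABP3 averaged 62.7 CPM in TrogGW, 31.6 in Trog, 267 in UK, 1015 in TGFb and 441 in FB, and so was higher in TrogGW than in Trog, as EDN1 was.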

How the data were processed

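Polyadenylated RNA of 25 samples (200 ng of total RNA each) was sequenced as stranded TruSeq libraries, per the labels' protocols. Salmon 1.5.2, STAR 2.7.9a, featureCounts, fastp 0.23.1 and Subread 2.0.1 are listed in the submitters' processing notes, with no roles. Not given in the sources used here are the build, the annotation and the strand used in counting. For each sample the authors deposited a headerless table of 13949 gene symbols with raw counts of reads, and columns were assigned by the sample titles in the labels. Names of genes and overlaps of their spans came from the RefSeq table of assembly F.catus_Fca126_mat1.0, which held 13794 of the symbols. No sequence was used here, so the planned search of promoters for motifs was not run.

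Counts were analysed with edgeR 4.0.16 in R 4.3.3. The expression filter (a minimum count of 10 and a minimum total of 15) kept 10699 genes. A single fit with TMM factors held all 25 libraries, with a mean for each group. The quasi-likelihood F test was used with Benjamini-Hochberg adjustment over these genes, and genes rose or fell at an adjusted p under 0.05. The SE of a log2 fold change is its size over the square root of F. Log2 CPM used a prior count of 2. Depth was 14.8 to 25.2 M counts a library. No pair of libraries within a group differed by sampling noise alone, with chi-square values per gene of 3.29 to 794. For same-numbered libraries of different groups, deviations from the group means correlated at -0.187 to 0.328, and 6 of 50 correlations were over 0.1. The numbers were not taken as pairs. Libraries of different numbers were not correlated in this way, so the check cannot exclude a pairing.

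The 3 members, the 10 gene lists and the marker lists were chosen with earlier results of these data known, and 1 list and some genes that the rule below selects are not reported here. Of a list other than the CCN, endothelin and ankyrin repeat lists, up to 3 called genes with the largest and 3 with the smallest fold change were named per comparison. Likeness was the Euclidean distance between centred group means of log2 CPM. Alternatives were DESeq2 1.42.0, limma voom (limma 3.58.1), other scaling factors, library totals alone, no filter or a minimum count of 50, fits of only the 2 groups compared, a replicate block and each library left out in turn. The code was tested on simulated counts of TGFb against FB, where 80 of 100 genes with a 2-fold change were called, 47 of 100 with a 1.5-fold change, and 6 of 9852 without a change. Figures were drawn with matplotlib 3.10.9.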

Additional observations from a re-analysis of the deposited data

Results flagged for a closer look

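Of the 15 sets of 5 libraries formed by the 3 genes and 5 groups, 2 held a library whose gap to the nearest other, as a share of the range of the group, was above Dixon's critical value of 0.71. Chance gives about 1 in 20 such flags.

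ANKRD1 in UK was flagged through replicate 5, at 74.1 CPM beside 31.0 CPM in the next library, a share of 0.761. Without it the group averaged 27.4 ± 6.65 CPM (SD, n = 4), against 36.7 ± 21.7 CPM with it (n = 5). The same library had the fewest counts and the lowest correlation with its group, and their part in the value was not tested.

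EDN1 in FB was flagged through replicate 4, at 5.43 CPM beside 4.28 CPM in the next library, a share of 0.742. It remained below all TGFb libraries, whose lowest had 9.14 CPM.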

How the results depend on the processing

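The log2 fold changes of the 3 genes kept their sign under every alternative that was run. Scaling by library totals shifted the median over genes by -0.37 in TGFb against FB, 0.68 in Trog against TGFb, 0.85 in TrogGW against TGFb, 0.23 in UK against TGFb and 0.17 in TrogGW against Trog. TGFb against FB was then 2.53 for ANKRD1, 0.076 for CCN1 and 1.17 for EDN1. Trog against TGFb was -1.46 for CCN1 and -7.43 for EDN1, and TrogGW against TGFb was -12.75, -2.30 and -4.12 for ANKRD1, CCN1 and EDN1. Genes that rose were 13.9%, 83.2%, 84.9%, 74.2% and 69.9% of all calls in TGFb against FB, Trog, TrogGW and UK against TGFb, and TrogGW against Trog, beside 47.2%, 52.5%, 54.9%, 55.4% and 52.8% with TMM. YAP/TAZ targets then rose and fell in numbers of 2 and 7 in TGFb against FB, 4 and 7 in Trog against TGFb and 5 and 7 in TrogGW against TGFb, and 5 fell in UK against TGFb. MRTF and SRF targets rose and fell in numbers of 4 and 2 in TGFb against FB, and 5 rose in TrogGW against Trog. The sign turned for ARHGAP29 in TGFb against FB (-0.21) and for EDNRA and PMEPA1 in TrogGW against TGFb (0.76 and 0.12). With upper quartile factors, EDNRA was 0.034 there, and 4 MRTF and SRF targets rose in TrogGW against Trog.

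In fits of only the 2 groups compared, 7087 genes were called in TGFb against FB, 3210 in UK against TGFb and 7312 in TrogGW against Trog, beside 4089, 5408 and 4620. YAP/TAZ targets then numbered 10 that rose and 8 that fell in TGFb against FB, 4 that rose in Trog against TGFb, and 0 that rose and 5 that fell in UK against TGFb, while 5 MRTF and SRF targets rose in TrogGW against Trog. With a minimum count of 50, 3, 1 and 1 YAP/TAZ targets rose in TGFb against FB, TrogGW against TGFb and TrogGW against Trog, and 3 MRTF and SRF targets rose in TrogGW against Trog, where DESeq2 gave 2. In UK against TGFb, 0 YAP/TAZ targets rose with no filter on counts and with limma voom, which gave 1 in TrogGW against TGFb. The replicate block gave 1 YAP/TAZ target that rose in TrogGW against TGFb and 0 in UK against TGFb. Whether libraries of the same number belong together is not given by the labels.

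With each library left out in turn, EDN1 ranged from -8.45 to -7.84 in Trog against TGFb and from -6.89 to -6.29 in Trog against FB. Calls ranged from 3657 to 7124 in TGFb against FB and from 4176 to 7735 in TrogGW against Trog, the highest of each without UK replicate 5. YAP/TAZ targets that rose ranged from 3 to 7 in TGFb against FB, where 2 to 8 fell, and from 1 to 4 in Trog, 1 to 3 in TrogGW and 0 to 1 in UK against TGFb. MRTF and SRF targets that rose ranged from 0 to 1 in UK against TGFb and from 1 to 5 in TrogGW against Trog. Of 206 named genes in a comparison, 198 passed the test, and 32 of these failed it under at least 1 alternative. The cause of these differences was not tested. With 0 to 2 reads a library, depth limits EDN1 in Trog.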

Other observations

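Of 10 direct targets of TGF-beta and SMAD signalling, 4 rose and 1 fell in TGFb against FB, beside 18.0% and 20.2% of all genes, led by BHLHE40, a clock repressor, at 661 ± 129 CPM in TGFb and 242 ± 19.3 CPM in FB. In Trog against TGFb 4 fell and 3 rose, beside 29.7% and 32.9% of all genes. In TrogGW against TGFb 3 fell and 4 rose, beside 31.3% and 38.1%, and in UK against TGFb 5 fell and 0 rose, beside 22.5% and 28.0%. In TrogGW against Trog 3 rose and 2 fell, beside 22.8% and 20.4%, and SMAD7, an inhibitor of the pathway, rose to 25.6 ± 1.62 CPM in TrogGW against 12.1 ± 1.16 CPM in Trog. Without UK replicate 5, 5 rose and 3 fell in TGFb against FB, 6 fell and 1 rose in UK against TGFb, and 6 rose and 2 fell in TrogGW against Trog.

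RYR2 and ACTN2, muscle genes of the calcium release channel and of the sarcomere, had 101 and 247 reads in TrogGW, 4 and 1 in Trog, and 0 in UK and in TGFb. EDN2, IGFBP3 and DES were also highest in TrogGW.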
